A study of Mus musculus with 6 samples.

Results

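The genes described here encode the proteins of the mitochondrial ribosome, in mouse long-term repopulating hematopoietic stem cells taken after exposure to YH250 or to its vehicle DMSO. They were every gene in the deposited table whose mouse symbol begins with Mrpl (large subunit) or Mrps (small subunit) and a digit. Of 41128 genes in the table, 82 fitted that rule. Leaving out 5 pseudogenes gave 77 genes, 48 with Mrpl and 29 with Mrps symbols. All 77 passed the filter for testing, a mean of at least 1 RPM (reads scaled to a common total per library) over the libraries, as did 13597 genes in all.

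C57BL mice received DMSO or YH250, a compound that the submitters name as a p300/catenin antagonist, by a subcutaneous dose of 2 mg per kg. Marrow was taken at 16 h. Cells were sorted as lineage-negative, Sca1+, c-Kit+, CD41-, CD48- and CD150+, a gate used for long-term stem cells, and poly(A) RNA was amplified from small inputs. Each group has 3 libraries, numbered 1 to 3 in the labels. The sources used here give no age, sex or genotype beyond the strain, and they do not say that the libraries came from separate animals or whether animals were pooled. All p-values thus rest on the spread among the 6 libraries, which may be technical.

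The mitochondrial ribosome makes the few membrane proteins that the mitochondrial genome encodes, all of them core subunits of the respiratory chain and of ATP synthase. Its RNA comes from the mitochondrial genome, while its proteins are encoded in the nucleus, made in the cytosol and imported. The small subunit binds the messenger RNA and holds the decoding centre. The large subunit joins amino acids and passes the growing chain out through an exit tunnel. Hematopoietic stem cells are known for low reliance on respiration at rest, and respiration increases when they leave quiescence.

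The worth of 1 read was 0.0322 to 0.0456 RPM, so that 1 RPM stood for 21.9 to 31.1 reads. Annotated genes held 70.0% to 95.9% of the total to which each library was scaled. The markers of the sorting gate differed between libraries, and no number matched the gate in all of them. Slamf1, which encodes CD150, was at 35.5 and 31.5 RPM in DMSO 1 and YH250 1 whereas DMSO 2 and 3 had 0.515 and 4.69 RPM, and YH250 2 and 3 had 3.92 and 1.54 RPM. Cd48 was at 258 and 252 RPM in the libraries numbered 3, against 10.2 to 66.9 RPM in the other 4. Itga2b, which encodes CD41, was at 43.7 and 37.4 RPM in the libraries numbered 1, at 15.3 and 26.3 RPM in those with number 2 and at 5.65 and 7.13 RPM in those with number 3 (DMSO first). Ly6a, the Sca1 gene, ran the other way, with 80.9 and 122 RPM at number 1 and 241 and 319 RPM at number 3. Kit was at 213 to 318 RPM under DMSO and at 130 to 218 RPM under YH250. Of 10 stem cell markers, 9 were lower in number 3 than in number 1 (limma, Benjamini-Hochberg adjusted p under 0.05). Of all 13597 genes tested, 403 were called lower in this comparison. Where 3 values are listed for a group they follow the order of the numbers 1, 2 and 3. Results are also given without the libraries numbered 3 and for each number on its own. In bulk samples such as these, fewer cells of a type and less RNA per cell cannot be told apart.

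Every member was detected in every library, and none was rare or dominant. Mean levels ran from 22.6 to 202 RPM with a median of 56.7 RPM. The lowest single value was 16.6 RPM, for Mrps31 in DMSO 1, and the highest 320 RPM, for Mrps14 in DMSO 3. Per kilobase of transcript, the mean level ran from 9.05 RPM per kb for Mrps5 to 233 RPM per kb for Mrps21. The median was 42.6 RPM per kb for Mrpl and 35.2 RPM per kb for Mrps symbols. These values depend on the transcript model taken for each gene, here the middle of the principal models in GENCODE M21. They compare genes only if reads scale with transcript length, which was not tested for this amplified RNA. The models of Mrps21 and Mrpl52, the highest Mrps and Mrpl symbols per kilobase, had 405 and 418 bases, against a median of 1280 over the members.

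The highest large subunit levels per kilobase were those of Mrpl52, at 223 RPM per kb, Mrpl42, also at 223 RPM per kb, and Mrpl34, at 144 RPM per kb. Mrpl52 and Mrpl42 are additions of the mitochondrial ribosome with no bacterial relative, while Mrpl34 has a counterpart in bacteria. Among small subunit genes Mrps21 (233 RPM per kb), Mrps18c (141 RPM per kb) and Mrps17 (124 RPM per kb) led, and all 3 have bacterial counterparts. Grouped by origin and by place in the ribosome, the 16 small subunit genes with a bacterial counterpart had a median of 63.7 RPM per kb and the 10 mitochondria-specific ones 19.5 RPM per kb. In the large subunit the medians were 50.1 RPM per kb for 29 genes with a bacterial counterpart and 30.3 RPM per kb for 21 mitochondria-specific ones. Transcripts of the mitochondria-specific proteins thus had the lower median per kilobase in each subunit, as a description of these 6 libraries. Without division by length the medians lay closer together. They were 59.0 RPM with a bacterial counterpart and 42.1 RPM for mitochondria-specific genes in the small subunit, and 61.3 and 53.6 RPM in the large subunit. The part of transcript length in the gap per kilobase was not tested. In this grouping Mrps18a and Mrps30 count with the large subunit, where their proteins sit. Mrps36 is left out, since despite its symbol its product belongs to the oxoglutarate dehydrogenase complex of the citrate cycle.

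The levels of the members moved together from library to library. DMSO 1 held the lowest value of 45 members and DMSO 3 the highest value of 43. Expressed as the deviation of log2(RPM + 1) from each gene's mean over the 6 libraries, the median member lay at -0.36, -0.18 and 0.31 in DMSO 1, 2 and 3 and at 0.05, 0.05 and 0.23 in YH250 1, 2 and 3. The DMSO libraries thus spanned a wider range than the YH250 libraries and enclosed all of them. Over all tested genes the same medians stayed between -0.04 and 0.08. A member's highest library exceeded its lowest by 1.88 times in the median. Mrpl11, a counterpart of a bacterial protein at the factor-binding site, was the steadiest at 1.22 times, and Mrpl10, which anchors the ribosomal stalk, the most variable at 3.03 times.

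**Figure D1:**
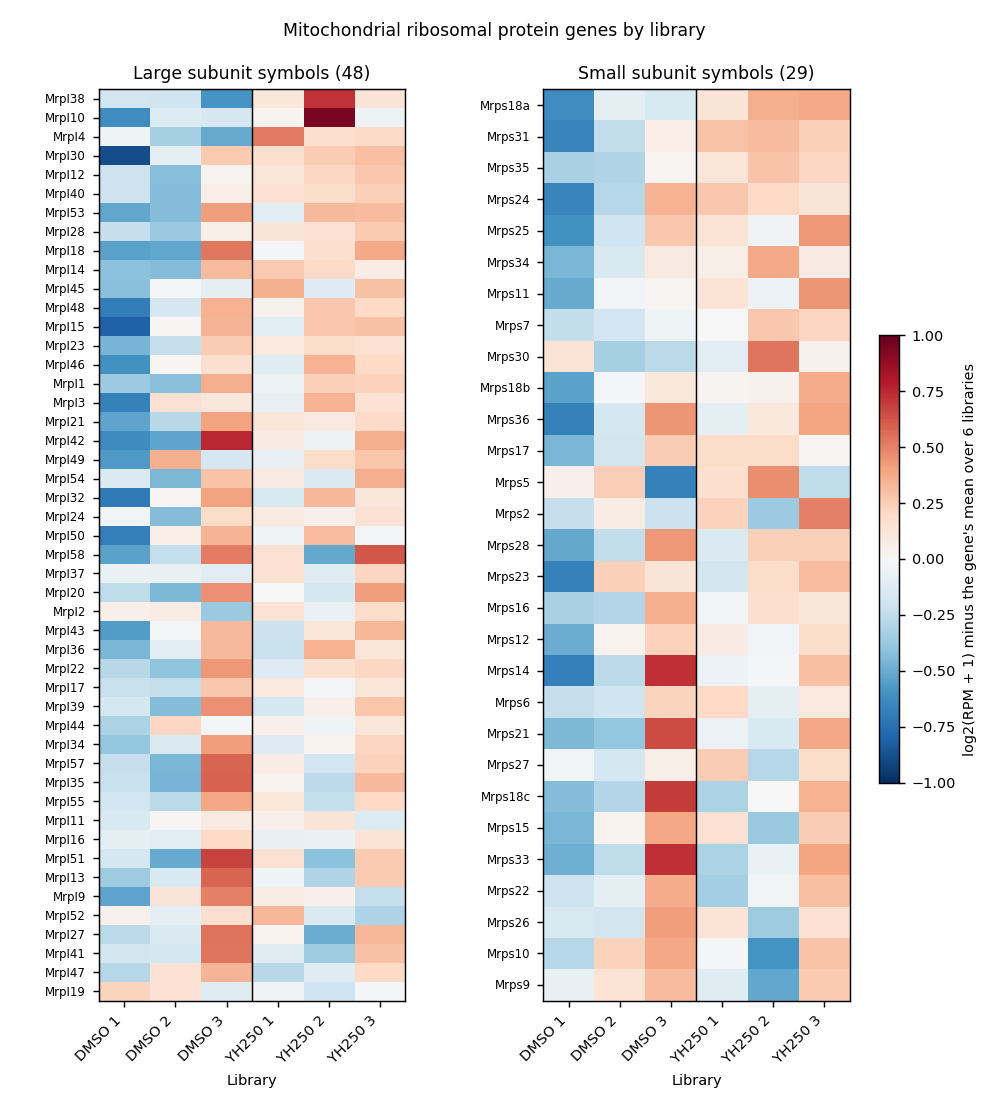
Each cell is the log2(RPM + 1) of a member in a library minus that gene's mean over the 6 libraries, for 48 Mrpl and 29 Mrps symbols ordered by their difference between YH250 and DMSO, highest at the top. The DMSO 1 column is mostly blue (lowest library for 45 members) and the DMSO 3 column mostly red (highest library for 43).

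The promoters of the members were read from the RefSeq table of 300-base windows (GRCm38.p6, the assembly of mm10), 250 bases before and 50 after a gene's start. The table held 74 windows for 68 members, and none for Mrpl4, Mrpl13, Mrpl15, Mrpl19, Mrpl38, Mrpl54, Mrps28, Mrps34 and Mrps35. Factors known from work on nuclear genes of mitochondria are NRF1, the ETS factor GABP and YY1. The following stretches end at the base before a RefSeq start of 5 members. For Mrpl48, which has several RefSeq starts, this start lies inside the gene as GENCODE M21 bounds it (100545751 to 100608301). They are shown because they hold an NRF1 or ETS match just upstream of the start in sequence that meets no annotated exon. Whether such matches bear on how the members varied over the libraries was not tested. Capitals mark the match, and each reads 5′ to 3′ on the gene's strand.
Mrpl43, chr19:45006443-45006557, minus strand, ETS: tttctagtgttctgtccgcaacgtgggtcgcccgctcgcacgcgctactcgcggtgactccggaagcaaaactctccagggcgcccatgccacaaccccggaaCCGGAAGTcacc
Mrpl45, chr11:97315566-97315715, plus strand, NRF1: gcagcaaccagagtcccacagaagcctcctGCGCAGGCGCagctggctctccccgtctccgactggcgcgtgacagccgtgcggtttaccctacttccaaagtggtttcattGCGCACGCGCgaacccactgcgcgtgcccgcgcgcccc
Mrpl48, chr7:100583131-100583280, minus strand, ETS: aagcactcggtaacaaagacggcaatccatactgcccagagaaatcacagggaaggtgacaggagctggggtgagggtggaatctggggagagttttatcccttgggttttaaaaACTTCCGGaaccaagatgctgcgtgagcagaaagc
Mrps22, chr9:98601680-98601829, minus strand, ETS: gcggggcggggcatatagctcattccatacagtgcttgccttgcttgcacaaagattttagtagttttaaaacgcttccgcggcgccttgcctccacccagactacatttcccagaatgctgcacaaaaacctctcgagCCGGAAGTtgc
Mrps27, chr13:99344706-99344785, plus strand, ETS: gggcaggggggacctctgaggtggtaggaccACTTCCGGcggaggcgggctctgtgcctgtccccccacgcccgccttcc

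Each motif was searched on both strands of the whole window, and matches were allowed to overlap. The NRF1 letters, GCGCA and GCGC with any 1 base between them, were found in 13 of 74 member windows (17.6%), in 9.82% of the windows of tested genes and in 4.60% of all 32851 windows. The ETS letters CCGGAAGT were found in 11 member windows (14.9%), in 7.95% of those of tested genes and in 3.89% of all. For the YY1 letters AAGATGGCG the shares were 10.8% (8 windows), 2.99% and 1.40%. The Sp1 letters GGGCGG were in 52.7% of member windows and 60.7% of those of tested genes, and TATAAA in 6.76% and 7.16%. Against tested genes, the first 3 motifs were thus more frequent among the members and the last 2 less frequent, as counts with no test. These are letters in a window, not sites.

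The summed level of the members had the same order of libraries as their median deviation. The 77 members summed to 3704, 4218 and 6027 RPM under DMSO and to 4937, 5051 and 5632 RPM under YH250. This is also the order of the RPM that each library had in annotated genes, which was 699979, 756066 and 959240 in DMSO 1, 2 and 3 and 779144, 849188 and 936080 in YH250 1, 2 and 3. The part of that measure in the result was not tested. As a share of the RPM in genes, the members took 0.529%, 0.558% and 0.628% in DMSO 1, 2 and 3 and 0.634%, 0.595% and 0.602% in YH250 1, 2 and 3. On this scale DMSO 1 and 2 were the lowest, and DMSO 3 lay among the YH250 libraries. Large subunit genes summed to 2428, 2675 and 3820 RPM under DMSO and to 3207, 3280 and 3583 RPM under YH250. Small subunit genes summed to 1276, 1544 and 2206 RPM under DMSO and to 1730, 1771 and 2049 RPM under YH250.

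**Figure D2:**
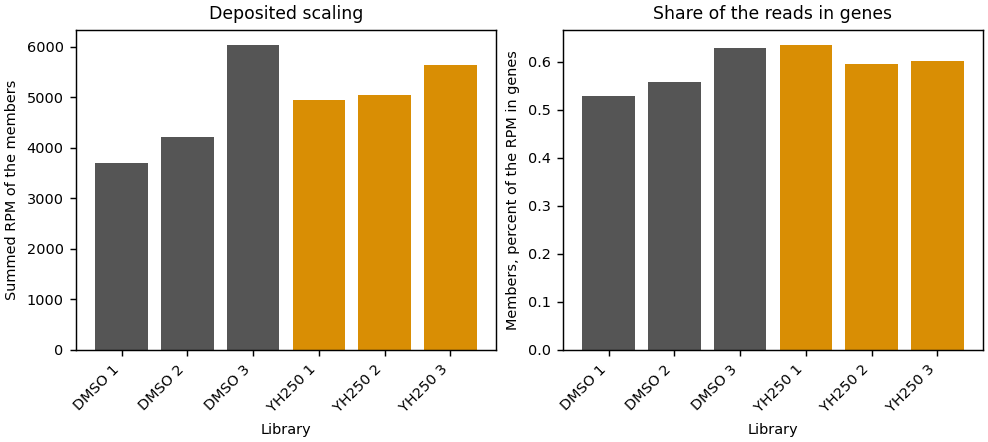
Bars give the summed RPM of the 77 members in each library (left) and that sum as a percent of the RPM in annotated genes (right). DMSO 1 and 2 are the lowest on both scales, while DMSO 3 is the highest in RPM at 6027 and second to YH250 1 as a share, at 0.628% against 0.634%.

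The series was designed to compare YH250 with DMSO. No member passed the test: 0 of 77 were called by limma at a Benjamini-Hochberg adjusted p under 0.05, as were 0% of all 13597 genes. The smallest adjusted p of a member was 0.999 by limma, and 0.66 in the limma fit with the replicate number as a block. At an unadjusted p under 0.05, limma gave 3 members, all higher in YH250, where it gave 1.7% of all genes in either direction and 0.934% in that direction. With the block it gave 7 members, again all higher, where it gave 7.44% of all genes in either direction and 4.46% in that direction. The 7 were Mrpl4, Mrpl10, Mrpl12, Mrpl30, Mrpl38, Mrps18a and Mrps31.

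The means nevertheless lay mostly on 1 side. The mean log2 level was higher in YH250 for 66 of 77 members, against 51.7% of all genes, namely for 41 of 48 Mrpl and 25 of 29 Mrps symbols. The median log2 difference, YH250 minus DMSO, was 0.18 for Mrpl, 0.22 for Mrps and 0.19 for all members, against 0.02 for all genes. Single members ran from -0.26 to 0.65 with a median standard error of 0.28. The members' median deviations per library had a pooled SD of 0.26 within groups. The median rested on the DMSO libraries at either end: it was 0.05 without DMSO 1, 0.38 without DMSO 3 and 0.30 without both libraries numbered 3. The number of members with the higher mean was 45, 72 and 69 in these settings. Other scalings of the libraries left the sign, with a member median of 0.09 to 0.15 and an all-gene median of -0.07 to -0.01.

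**Figure D3:**
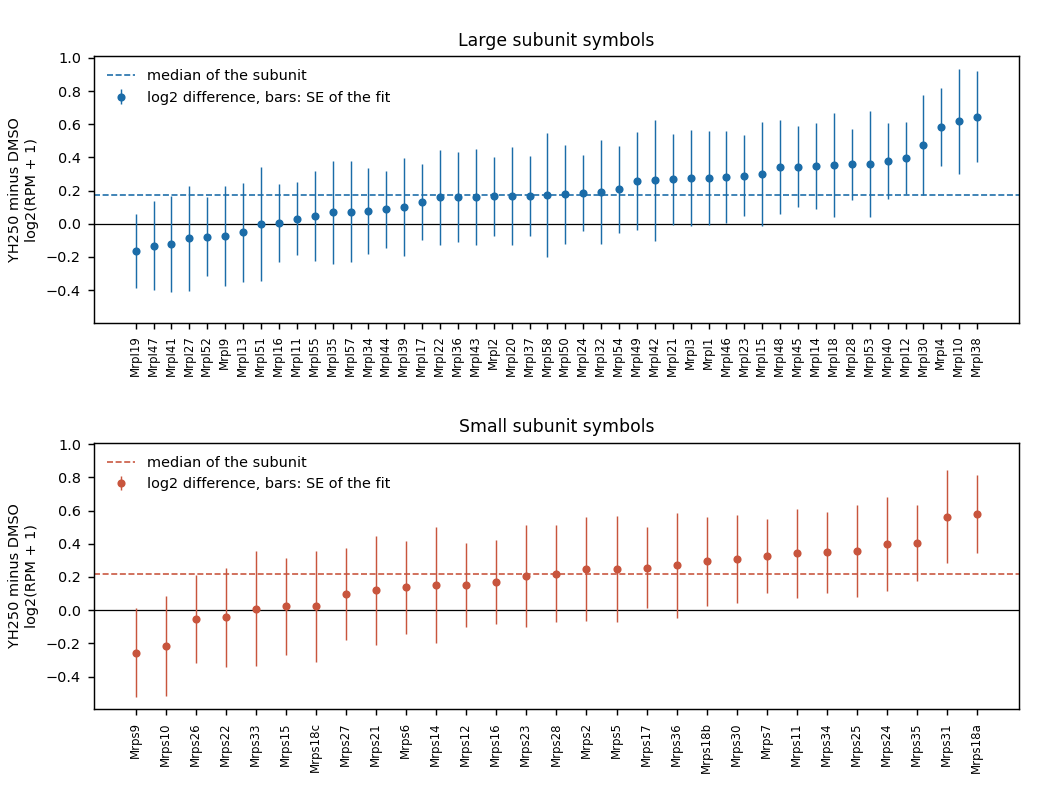
Points give the log2(RPM + 1) difference YH250 minus DMSO of every Mrpl (upper panel) and Mrps (lower panel) gene, with the standard error of the limma fit as bars and the subunit's median as a dashed line. Most points lie above 0, at medians of 0.18 and 0.22, and no point passed the adjusted threshold.

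The groups did not overlap for 10 members with YH250 higher, where 3.79% of all genes showed this, and for 0 members with YH250 lower (3.68% of all genes). For groups of 3 and 3 libraries an exact permutation test cannot give a two-sided p below 0.1. The 6 large subunit genes were Mrpl4, Mrpl10, Mrpl12, Mrpl28, Mrpl38 and Mrpl40, and the 4 small subunit symbols Mrps7, Mrps18a, Mrps31 and Mrps35.

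Among large subunit genes, Mrpl4 had the smallest unadjusted p. It lies on chromosome 9 (mm10, 21002738 to 21008839, plus strand) and encodes a counterpart of a bacterial protein that lines the exit tunnel. Its level was 55.3, 45.1 and 39.8 RPM under DMSO and 81.8, 63.9 and 65.1 RPM under YH250. Every YH250 library was above every DMSO library. The log2 difference was 0.58 ± 0.24 (SE), with an unadjusted p of 0.036 by limma and an adjusted p of 0.999. Unlike most members, Mrpl4 was highest in DMSO 1 among the controls, and within each number YH250 was higher, by 0.56, 0.49 and 0.70 on the log2 scale.

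Mrpl38, on chromosome 11 (116131817 to 116138868, minus strand), encodes a mitochondria-specific protein of the central protuberance. It was at 32.6, 32.2 and 24.3 RPM under DMSO and at 40.3, 61.8 and 40.8 RPM under YH250. The groups did not overlap, and YH250 2 stood above the other 2 treated libraries. At 0.65 ± 0.27 (SE) its log2 difference was the highest of all members, with a limma adjusted p of 0.999. It was 0.45 without YH250 2. Mrpl10, on chromosome 11 (97041560 to 97049213, plus strand), was at 29.7, 42.0 and 41.0 RPM under DMSO and at 47.1, 90.2 and 44.6 RPM under YH250. The mean difference of 0.62 ± 0.32 (SE) was 0.30 without YH250 2, and the other treated libraries exceeded the highest control by a few RPM only.

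Mrpl12, the partner of Mrpl10 in the stalk, which also binds the mitochondrial RNA polymerase, was at 85.0, 72.9 and 101 RPM under DMSO and at 107, 114 and 119 RPM under YH250. The groups were separate but close, and the log2 difference was 0.40 ± 0.22 (SE). Its exons overlap those of Gm16755 on the opposite strand, and it is not stated whether the counting used strand. Mrpl45, which is related to an import motor component and sits at the tunnel exit facing the inner membrane, was at 38.2, 51.0 and 48.0 RPM under DMSO and at 65.8, 46.8 and 63.2 RPM under YH250. YH250 2 lay within the DMSO range. Mrpl58, a peptidyl-tRNA hydrolase built into the large subunit that releases stalled chains, was at 24.6, 30.5 and 52.1 RPM under DMSO and at 40.2, 25.1 and 56.1 RPM under YH250. It varied as much within each group as between groups, with a log2 difference of 0.17 ± 0.38 (SE).

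A lower mean in YH250 was found for 7 large subunit genes. Among these, Mrpl19, counterpart of a bacterial protein at the subunit interface, was at 64.8, 61.4 and 50.7 RPM under DMSO and 53.9, 48.2 and 54.8 RPM under YH250. Its log2 difference of -0.16 ± 0.22 (SE) was the lowest of the large subunit genes, and the groups overlapped. Mrpl47, a counterpart of a bacterial protein beside the tunnel exit, was at 31.95, 43.5 and 49.99 RPM under DMSO and 32.2, 35.9 and 45.2 RPM under YH250. Mrpl41, a mitochondria-specific protein, was at 46.0, 46.3 and 76.2 RPM under DMSO and 48.1, 40.7 and 64.3 RPM under YH250. Their log2 differences of -0.13 and -0.12 were smaller than their standard errors of 0.27 and 0.29. The exons of Mrpl19 overlap those of Gcfc2, and the exons of Mrpl47 overlap those of Actl6a and Ndufb5.

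Of the Mrps symbols, Mrps18a on chromosome 17 (46110986 to 46128910, plus strand) had the smallest unadjusted p. It belongs to a family of S18-like proteins whose members sit at different places of the mitochondrial ribosome, and its product is in the large subunit. The level was 39.0, 56.4 and 54.1 RPM under DMSO and 66.3, 77.9 and 78.7 RPM under YH250. All treated libraries were higher, DMSO 1 was the lowest, and the log2 difference was 0.58 ± 0.24 (SE; unadjusted p of 0.037 and adjusted p of 0.999 by limma). The other members of that family did not show this separation. Mrps18b was at 25.9, 37.7 and 40.8 RPM under DMSO and 38.7, 39.1 and 49.5 RPM under YH250, and Mrps18c at 63.5, 70.1 and 141 RPM under DMSO and 69.1, 86.3 and 110 RPM under YH250. Their log2 differences were 0.29 ± 0.27 (SE) and 0.02 ± 0.34 (SE). Whether the family members differed from each other in response was not tested.

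Mrps31, on chromosome 8 (22411361 to 22429665, plus strand), encodes a mitochondria-specific protein of the small subunit's head. It was at 16.6, 22.5 and 28.2 RPM under DMSO and at 33.1, 33.8 and 31.98 RPM under YH250. The treated libraries were nearly alike (32.9 ± 0.90 RPM, SD, n = 3) and the controls spread more widely (22.5 ± 5.81 RPM, SD, n = 3). The log2 difference was 0.56 ± 0.28 (SE), with a limma adjusted p of 0.999, and it was 0.37 without DMSO 1. Mrps30, whose product sits in the large subunit, was at 56.1, 40.1 and 42.1 RPM under DMSO and 47.1, 74.0 and 52.3 RPM under YH250. The groups overlapped through DMSO 1 and YH250 1.

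The groups overlapped for Mrps5, Mrps9, Mrps10 and Mrps12, small subunit genes with bacterial counterparts. Mrps12, the counterpart of the bacterial protein at the decoding centre, was at 40.6, 59.3 and 68.0 RPM under DMSO and 61.0, 56.6 and 65.4 RPM under YH250, with a log2 difference of 0.15 ± 0.25 (SE). Mrps5, which in bacteria lies at the entry of the messenger RNA, was at 40.8, 46.8 and 24.2 RPM under DMSO and 44.2, 54.6 and 32.8 RPM under YH250. For Mrps5 the libraries numbered 3 were the lowest of each group, opposite to most members. Mrps9, whose bacterial counterpart reaches the tRNA in the peptidyl site, was at 46.6, 54.0 and 61.2 RPM under DMSO and 44.9, 33.9 and 58.9 RPM under YH250. It had the lowest log2 difference of all members, -0.26 ± 0.27 (SE), and was the only member lower in YH250 at all 3 numbers, where 15% of all genes were. Mrps10, another head protein with a bacterial counterpart, was at 51.6, 74.1 and 82.7 RPM under DMSO and 62.6, 41.4 and 77.4 RPM under YH250, lowest in YH250 2. Its log2 difference of -0.22 ± 0.30 (SE) was 0.030 without that library, and that of Mrps9 was -0.059.

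**Figure D4:**
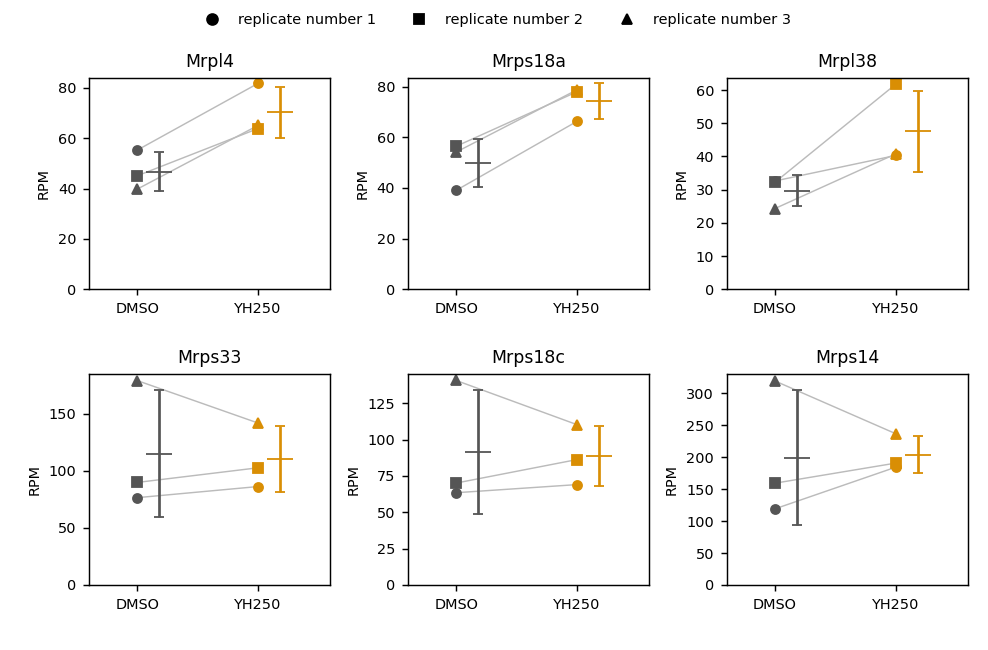
Points give the RPM of Mrpl4, Mrps18a and Mrpl38, which had the smallest unadjusted p for YH250 against DMSO, and of Mrps33, Mrps18c and Mrps14, which had the highest difference between numbers 3 and 1. Marks give the replicate number, lines join libraries of the same number, and bars give mean and SD; in the upper row all lines go up, and in the lower row the line of number 3 goes down.

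Libraries of the same number resembled each other, and within numbers the difference between YH250 and DMSO changed sign. At number 1, 72 of 77 members were higher in YH250 (54.9% of all genes), with a median log2 difference of 0.36. For number 2 it was 55 members (53.5% of all genes) and a median of 0.24. At number 3 it was 30 members (44.3% of all genes) and a median of -0.07. Over all genes the medians were 0.06, 0.06 and -0.06. Mrpl genes had medians of 0.33, 0.26 and -0.12 and Mrps genes of 0.44, 0.22 and -0.05 at numbers 1, 2 and 3. Each of these compares 1 library with 1 library and has no replicate check.

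**Figure D5:**
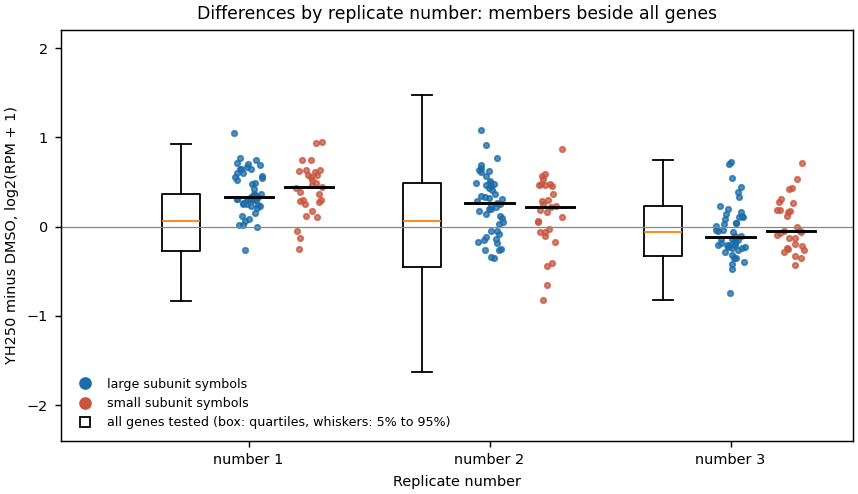
Points give the log2(RPM + 1) difference YH250 minus DMSO at each replicate number for Mrpl and Mrps genes with their medians as black lines, and boxes give quartiles over 13597 tested genes with whiskers from the 5th to the 95th percentile. The members' medians lie above 0 at numbers 1 and 2 (0.33 and 0.44, then 0.26 and 0.22) and below 0 at number 3 (-0.12 and -0.05).

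A higher level in YH250 at all 3 numbers was seen for 18 members, where 16.1% of all genes showed it. For the 78 genes of the cytosolic ribosome, set beside them because they encode the other translation machinery of the cell, the medians at numbers 1, 2 and 3 were 0.32, 0.29 and -0.24. Their median difference over all 6 libraries was 0.13, against 0.19 for the members. Their median deviations per library were -0.27, -0.18 and 0.24 under DMSO and 0.05, 0.11 and 0.03 under YH250. The mitochondrial and the cytosolic ribosomal protein genes thus had the same order of signs over the numbers, and whether their differences differed was not tested.

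The members were also compared between the replicate numbers, with treatment as a second term and 2 libraries per number. What a number stands for is not given. Between numbers 3 and 1, 2 members rose, Mrps33 and Mrps18c, and 0 fell by limma at an adjusted p under 0.05, against 8.56% of all genes in either direction and 5.6% upward. Of the 77 members, 70 had the higher mean in number 3 (52.9% of all genes), with a median log2 difference of 0.43 against 0.04 for all genes. At an unadjusted p under 0.05, limma gave 25 members, where 24.4% of all genes were called. Scaling each library to its RPM in genes moved the median of all genes to -0.28 and that of the members to 0.08. The difference between them was 0.36 on that scale and 0.39 on the deposited one.

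Mrps33, a small mitochondria-specific protein, was at 76.6, 89.9 and 179 RPM under DMSO and at 86.3, 103 and 142 RPM under YH250. Number 3 was above the others in either treatment. The log2 difference, number 3 minus number 1, was 0.96 ± 0.22 (SE), with an adjusted p of 0.026 by limma. Mrps18c, with the values given above, differed by 0.90 ± 0.23 (SE; limma adjusted p of 0.041). Neither passed without DMSO 1 or without DMSO 3, nor when the libraries were quantile normalized or scaled to the RPM in genes. The adjusted p from limma for Mrps33 ranged from 0.0031 to 0.29 when single libraries were left out. That for Mrps18c ranged from 0.0049 to 0.46. Length and GC correction lowered the differences to 0.43 for Mrps33 and 0.17 for Mrps18c, and neither passed. Without DMSO 2 or without YH250 2, 14 members passed in each case, where 21.3% and 21.7% of all genes did.

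Mrps14, counterpart of a bacterial head protein and the most abundant member in RPM, was at 119, 159 and 320 RPM under DMSO and at 185, 191 and 237 RPM under YH250. Its difference between numbers 3 and 1 was 0.89 ± 0.25 (SE; limma adjusted p of 0.059). Mrpl42 followed the same course with 90.1, 96.8 and 237 RPM under DMSO and 148, 134 and 180 RPM under YH250. Mrps21 had 66.0, 69.3 and 143 RPM under DMSO and 86.9, 81.7 and 119 RPM under YH250. In each of these genes DMSO 3 was the highest library and YH250 3 the next. Mrpl34 was at 65.6, 77.7 and 115 RPM under DMSO and 78.5, 88.02 and 99.8 RPM under YH250. Mrps17, a body protein, differed from this pattern, with 77.3, 93.5 and 127 RPM under DMSO and 121, 121 and 108 RPM under YH250. Mrps36, the oxoglutarate dehydrogenase component, was at 31.4, 44.7 and 69.2 RPM under DMSO and 47.2, 54.6 and 66.8 RPM under YH250. This is the order of libraries of the sum of all members and of the RPM in annotated genes.

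The lowest differences between numbers 3 and 1 were those of Mrps5, Mrpl4 and Mrpl52, at -0.57, -0.39 and -0.25, and none passed (limma adjusted p of 0.19, 0.32 and 0.56). Mrpl52 was at 95.01, 86.7 and 104 RPM under DMSO and 117, 83.5 and 74.6 RPM under YH250. DMSO 3 was the highest control and YH250 3 the lowest treated library, so the treatments had no common order of numbers. Between numbers 3 and 2, 0 members passed limma at an adjusted p under 0.05 (6.31% of all genes in either direction and 3.67% upward), 17 had an unadjusted p under 0.05 (25.3% of all genes) and 62 had the higher mean in number 3 (54.6% of all genes). Between numbers 2 and 1, 0 members passed limma (0.199% of all genes), 6 had an unadjusted p under 0.05 (14.3% of all genes) and 44 had the higher mean in number 2 (51.1% of all genes). The members' median differences were 0.28 and 0.11, against 0.08 and 0.01 for all genes.

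Marker lists of other cells differed in their course over the libraries. The summed level of 8 T and NK cell markers ran from 53.7 to 467 RPM over the DMSO libraries and from 120 to 434 RPM over the YH250 libraries. That of 8 B cell markers ran from 64.0 to 616 RPM and from 170 to 810 RPM, and that of 10 granulocyte and monocyte markers from 320 to 919 RPM and from 462 to 935 RPM. In all 3 lists DMSO 1 was the lowest library and the libraries numbered 3 were the highest of their group. For 7 erythroid markers the sums were 14.2 to 140 RPM, highest in DMSO 2, and 8.72 to 78.6 RPM, lowest in YH250 3, and for 10 stem cell markers 444 to 1410 RPM and 361 to 1193 RPM, lowest in the libraries numbered 3. Of 5 lymphoid-primed progenitor markers the sums were 56.9 to 1515 RPM and 80.3 to 1443 RPM, highest in the libraries numbered 3, and of 5 megakaryocyte markers 35.6 to 103 RPM and 17.7 to 119 RPM, lowest in the libraries numbered 3, in contrast to most members. For 8 markers of stroma and endothelium the sums were 78.8 to 92.6 RPM under DMSO and 76.7 to 358 RPM under YH250. The highest of these was YH250 2. None of the genes in these lists was at 0 in all 6 libraries. Their part in the levels of the mitochondrial ribosomal protein genes was not tested.

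The promoter matches described above were found in some members and not in others. Of the 5 members whose upstream sequence is shown, only Mrpl45 held NRF1 letters there, and its YH250 libraries were at 46.8 to 65.8 RPM against 38.2 to 51.0 RPM under DMSO. Of 68 members with a window, 30 held at least 1 of the NRF1, ETS and YY1 matches. Only Mrps26 held NRF1 with ETS and only Mrps27 ETS with YY1. Among the genes with leading values, Mrpl12 and Mrpl30 held an NRF1 match, at -81 and -83 from the start. Mrps18a held a YY1 match at 11, and Mrps18c an ETS match at -157. Mrpl10, Mrpl28, Mrpl40, Mrps7, Mrps14, Mrps31 and Mrps33 also had leading values and held none of these matches in their windows. For Mrpl4, Mrpl38 and Mrps35 there was no window. Mrps9, the member lowest in YH250 relative to DMSO, held an NRF1 match at -5. The median log2 difference, YH250 minus DMSO, was 0.12 for the 13 members with NRF1 letters, 0.02 for the 11 with ETS letters, 0.21 for the 8 with YY1 letters and 0.20 for the 38 with none of these. The differences between these medians were not tested.

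A neighbouring start on the other strand was found for some members. The start of 18 of 77 (23.4%) lay within 1000 bases of the start of a gene on the other strand that points away from it. Over 12046 protein-coding genes with at least 1 RPM, 1274 (10.6%) did, and the shares were not tested against each other. Some of the partners also belong to the translation machinery. Mrps12 starts 172 bases from Sars2, the mitochondrial seryl-tRNA synthetase gene, and Mrpl49 starts 59 bases from Fau, which encodes a cytosolic ribosomal protein fused to a ubiquitin-like one. Mrps27 starts 81 bases from Ptcd2, a gene for an RNA-binding mitochondrial protein, and Mrpl32 75 bases from Psma2, a proteasome gene. Mrps18c starts 29 bases from the helicase gene Helq. Exons of 25 members overlapped exons of another gene with at least 1 RPM, so their counts are uncertain where strand was not used. For Mrpl53, Mrps6, Mrps24 and Mrps34 the other gene lies on the same strand, so that strand would not settle it. Mrpl46 and Mrps11 overlap each other. Mrpl4, Mrpl38, Mrps14, Mrps18a, Mrps18c and Mrps33 had no such overlap. Of the pseudogenes left out, Mrpl23-ps1 was read at 27.8 to 46.8 RPM, so the level of Mrpl23 is uncertain, and the other 4 were at most at 0.43 RPM.

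The other genes of mitochondrial translation gave no call between YH250 and DMSO either. Of 5 mitochondrial ribosomal proteins with other symbols, 0 passed limma at an adjusted p under 0.05 and 0 had an unadjusted p under 0.05, and all 5 had the higher mean in YH250, with a median log2 difference of 0.23. Dap3, a GTP-binding protein of the small subunit, was at 50.0, 80.4 and 69.7 RPM under DMSO and 81.9, 88.6 and 70.0 RPM under YH250. Ptcd3, an RNA-binding protein of the small subunit, was at 44.7, 50.2 and 69.1 RPM under DMSO and 52.8, 114 and 58.4 RPM under YH250, with YH250 2 apart from the rest. These genes thus lay on the same side as the members, where 51.7% of all genes had the higher mean in YH250. At all 3 numbers 2 of the 5 did so, against 16.1% of all genes.

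For the factors that assemble the ribosome the balance was nearer to even. Of 26 assembly factors, 16 had the higher mean in YH250, 0 passed limma at an adjusted p under 0.05 or an unadjusted p under 0.05, and the median log2 difference was 0.06. Ddx28, an RNA helicase of large subunit assembly, was at 8.14, 0.148 and 6.92 RPM under DMSO and 5.97, 13.8 and 12.1 RPM under YH250. Mterf4, which guides an RNA methyltransferase to the ribosome, was at 11.6, 15.3 and 18.9 RPM under DMSO and 17.0, 31.4 and 17.8 RPM under YH250. The groups overlapped in both.

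Of 16 translation factors, 9 had the higher mean in YH250, 0 passed limma and 1 had an unadjusted p under 0.05, Guf1, a GTPase related to a bacterial elongation factor. Guf1 was at 94.8, 87.7 and 72.2 RPM under DMSO and 57.1, 50.7 and 61.8 RPM under YH250. Every treated library was below every control, with a log2 difference of -0.57 ± 0.22 (SE; limma unadjusted p of 0.029 and adjusted p of 0.999). Mtrf1, a release factor relative, was at 10.8, 5.37 and 4.87 RPM under DMSO and 13.4, 8.79 and 11.8 RPM under YH250. The groups overlapped, and the median difference of the factors was 0.02.

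Of 20 genes that charge mitochondrial tRNAs (synthetases and the amidotransferase subunits Qrsl1, Gatb and Gatc), 10 had the higher mean in YH250, with a median of -0.01, and 0 passed limma at an adjusted or an unadjusted p under 0.05. Lars2, the leucyl enzyme, was at 133, 225 and 115 RPM under DMSO and 124, 634 and 399 RPM under YH250, high in YH250 2 and 3 but not in YH250 1. Vars2, the valyl enzyme, was at 14.3, 13.1 and 9.47 RPM under DMSO and 6.99, 4.96 and 7.84 RPM under YH250, separate but low.

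The messenger RNAs that the mitochondrial ribosome translates had, summed, the same order over the libraries as the members. This was also the order of the RPM that each library had in annotated genes, and the part of that measure was not tested. The 13 mitochondrial genome transcripts summed to 19676, 22939 and 38122 RPM under DMSO and to 23961, 28349 and 31070 RPM under YH250. Between YH250 and DMSO 0 passed limma, adjusted or unadjusted, 8 had the higher mean in YH250 and the median difference was 0.04. Between numbers 3 and 1 the median was 0.62. Of the 13, 1 passed, mt-Nd1, a subunit of respiratory complex I, which rose by 0.94 (limma adjusted p of 0.025). Over all genes 8.56% passed in either direction and 5.6% upward. The named transcripts mt-Nd6 and mt-Atp8 were at 411, 437 and 740 RPM and at 569, 640 and 1020 RPM under DMSO, and at 382, 330 and 561 RPM and 852, 783 and 911 RPM under YH250.

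Of 13 regulators of mitochondrial transcription and biogenesis, 6 had the higher mean in YH250, with a median of -0.05 and 0 passing limma at an adjusted or an unadjusted p under 0.05. Polrmt, the mitochondrial RNA polymerase, was at 5.41, 3.27 and 7.15 RPM under DMSO and 11.3, 8.91 and 9.55 RPM under YH250, a difference of 0.84 ± 0.42 (SE) with no overlap between groups. Myc, a transcription factor that raises ribosome production, was at 195, 298 and 221 RPM under DMSO and 164, 186 and 219 RPM under YH250, with overlap. The genes of the factors whose letters were searched did not pass either: Nrf1, Gabpa and Yy1 had differences of 0.20, -0.05 and -0.23, with standard errors of 0.32, 0.32 and 0.28.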

How the data were processed

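For 41128 genes the authors deposited a table of normalized signal, a value for each library, without stating its unit. Per the submitters' processing notes CASAVA 1.8.2, TopHat2 2.0.8, Partek and the build mm10 were used, in roles that are not given in the sources used here. Per the file headers the columns are named by treatment and number. The lowest deposited value was 1 in each library. The excess over 1 had a most frequent small step in each library, found over all genes together. On these grounds the value minus 1 was read as RPM. Whether the step was the same for short and long genes was not tested. Of the values worth 20 reads or fewer, 61.3% to 68.5% were whole to a tolerance of 0.1 read. Counts could thus not be restored, and count tests were left out. Depth limits the smallest step, 0.0322 to 0.0456 RPM per read.

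Ensembl identifiers were matched to symbols for 40254 genes. Differences were fitted on log2(RPM + 1) with limma 3.58.1 (R 4.3.3, trend and robust) over the 13597 genes that averaged 1 RPM or more, adjusted by Benjamini-Hochberg with a threshold of 0.05. The pseudocount of 1 understates the change of low genes. Members and lists were chosen with earlier results of these data known. Named members, 26 in all, were the 5 of smallest unadjusted p in each direction, the 3 of largest difference between numbers 3 and 1 in each direction, the 3 of highest RPM per kb in each subunit and 9 of known role. From each other list the 2 of smallest p were taken, and some further genes were named after their values were seen. Libraries of one number correlated in their deviations from the group means at 0.55, 0.26 and 0.70, all over the limit of 0.1, so the number was also fitted as a block. Differently numbered pairs above it were YH250 1 and DMSO 2, at 0.144, and YH250 2 and DMSO 1, at 0.109. The pairing comes from these data and not from the labels. Alternatives covered pseudocounts, minimum levels, scaling, weights, length and GC content, the block and leaving out libraries. Promoter windows came from RefSeq, and gene models and lengths from GENCODE M21.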

Additional observations from a re-analysis of the deposited data

How the results depend on the processing

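With 3 libraries a group and a median standard error of 0.28, differences of the members' median size were not detectable singly. No member was called between YH250 and DMSO in any of 21 other settings, in which the smallest adjusted p by limma was 0.66, and the members' median stayed positive (0.05 to 0.38). With the replicate block the median was 0.19, again with 0 called, and the pairing changed no other call. Counting Mrps18a and Mrps30 with the large subunit, chosen after seeing the data, gave medians of 0.18 and 0.19.

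Between numbers 3 and 1, where 2 members passed, 0 passed with no minimum level, with quantile normalization, with scaling to the RPM in genes, without trend and robust fitting or after length and GC correction, and 6 with a minimum of 5 RPM. Leaving out single libraries gave 0 to 14. Between numbers 3 and 2, where 0 passed, 6 did with a minimum of 5 RPM, 1 with scaling to the RPM in genes, 1 after length and GC correction, and 0 to 5 when single libraries were left out. Between numbers 2 and 1, leaving out single libraries gave 0 to 1. The causes were not tested.

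Changes of sign, 50 in all, were found among the named genes, and values are YH250 minus DMSO unless said otherwise. Array weights gave 0.014 for Mrpl41 and 0.10 for Mrpl52. Length and GC correction, with or without the replicate block, gave -0.074 for Mrps33, -0.084 for Mrps18c and -0.054 for Mrpl34. Median-of-ratios scaling gave -0.028 for Mrps33 and -0.014 for Mrps18c. Quantile normalization gave -0.049 for Mrps33 and -0.034 for Mrps18c. Scaling to the RPM in genes gave -0.085 for Mrps33, -0.072 for Mrps18c and -0.018 for Mrpl34. Leaving out both libraries numbered 1 gave -0.072 for Mrps33, -0.026 for Mrps18c, -0.086 for Mrps14, -0.013 for Mrpl34, -0.015 for Mrps21, -0.081 for Mrpl58 and -0.061 for Mrps12. Leaving out both libraries numbered 2 gave 0.089 for Mrps10, -0.081 for Mrps33, -0.11 for Mrps18c and -0.0015 for Ptcd3. Leaving out both libraries numbered 3 gave 0.12 for Mrpl52. When single libraries were left out, the values ran from -0.41 to 0.030 for Mrps10, from -0.31 to 0.0052 for Mrpl47, from -0.30 to 0.12 for Mrpl41, from -0.23 to 0.38 for Mrps33, from -0.19 to 0.38 for Mrps18c, from -0.15 to 0.55 for Mrps14, from -0.025 to 0.44 for Mrps5, from -0.26 to 0.056 for Mrpl52, from -0.097 to 0.30 for Mrpl34, from -0.075 to 0.48 for Mrps21, from -0.092 to 0.48 for Mrpl58 and from -0.059 to 0.31 for Mrps12. For number 3 minus number 1, Mrpl52 ran from -0.55 to 0.042.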
